A study of Mus musculus with 7 samples.

Results

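The Sox transcription factor loci comprise 10 genes, Sox1, Sox2, Sox4, Sox5, Sox6, Sox8, Sox9, Sox10, Sox11 and Sox21, taken by name from the 21883 protein-coding genes of the RefSeq table of GRCm38.p6. A locus reached from 50 kb below to 50 kb above the gene, and its value was the number of ATAC-seq peaks in it, per library. ATAC-seq maps open chromatin through the insertions of a transposase. Sorting for CD15, a surface carbohydrate of neural stem and progenitor cells, gave the cells, which came from the dorsal telencephalon of CD-1 embryos at E14.5, the age in the titles and design (the age field gives embryonic day 14). L3mbtl3 -/- embryos (L3mbtl3 KO, 4 libraries) were set against wild-type embryos (3 libraries). L3mbtl3 encodes an MBT-domain chromatin protein. The labels also mention heterozygous cells, but no library carries that label. The labels name neither the allele nor how many embryos stand behind a library, nor whether libraries came from separate embryos, so the p-values below measure the spread between these libraries, which may be technical.

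Sox proteins bind DNA through an HMG box and bend it, usually beside a partner factor. Sox1 and Sox2 keep neural progenitors undifferentiated, Sox21 counteracts them, and Sox9 is needed for neural stem cells and later for glia. Sox4 and Sox11 switch on neuronal genes in differentiating cells, Sox5 acts in postmitotic deep-layer cortical neurons, and its close relative Sox6 is known from cortical progenitors and interneurons. Sox8 and Sox10 act in oligodendrocyte development.

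The authors called peaks in each library separately. The lists held 9827, 7111, 3366 and 17362 peaks in L3mbtl3 KO libraries 1 to 4, against 7448, 11394 and 6458 in wild-type libraries 1 to 3. Read depth is unknown, and a longer list can hold weaker peaks, so the list length is given beside the results it moves with. At L3mbtl3 itself the only peaks in the locus were 1 in L3mbtl3 KO library 4 and 1 in wild-type library 1, which does not test the deletion. Of 11 radial glia marker genes, 10 had a peak in their locus in at least 1 library, all but Hes1, with 4 to 24 peaks summed over the list in L3mbtl3 KO libraries and 8 to 14 in wild-type libraries. Over all protein-coding loci 69.2% had a peak in at least 1 library, and neuron markers had one at 5 of 5 loci. Such counts do not tell cell types apart. A smaller share of accessible cells and less accessible DNA per cell cannot be told apart in these bulk lists.

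Peaks were unevenly spread over the family. Sox5, Sox6 and Sox9 had a peak in all 7 libraries, Sox21 in 5, Sox4 and Sox11 in 2, and Sox1, Sox2 and Sox8 in 1, while Sox10 had none. Over all protein-coding loci, 69.2% had a peak in at least 1 library and 6.9% in all 7. The 10 Sox loci held 91 peaks in all, of which 43 lay at Sox5 and 22 at Sox6, whose loci are the longest at 1054 and 669.9 kb against 102 to 110 kb for the others.

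**Figure D1:**
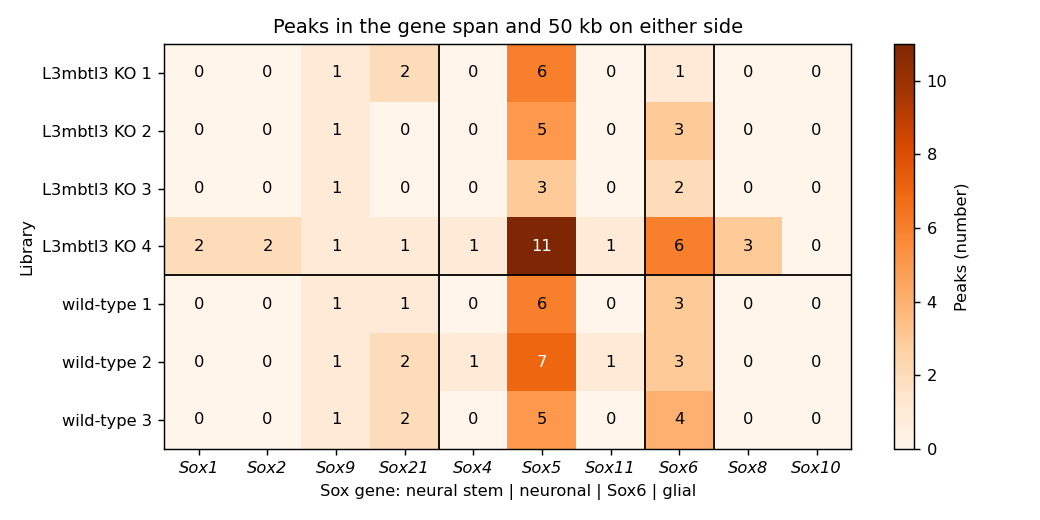
Number of peaks (colour and digits) within 50 kb of each Sox gene (columns) in every library (rows, L3mbtl3 KO above wild-type). Sox9 has 1 peak in each row, Sox5 has 3 to 11, and Sox1, Sox2 and Sox8 have peaks in L3mbtl3 KO library 4 alone.

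Among the neural stem members, Sox9 and Sox21 carried recurrent open regions and Sox1 and Sox2 did not. Sox9 (span chr11:112782210-112787757) had 1 peak in each of the 4 L3mbtl3 KO and the 3 wild-type libraries, always in the same region, chr11:112811186-112811785. This region lies 23.4 kb beyond the upper end of the Sox9 span and within 1 kb of the lncRNA gene Gm30562. The 7 peaks shared a core of 69 bp. The authors' fold enrichment there, a ratio over the peak caller's own background, was 5.57, 6.25, 4.43 and 6.92 in L3mbtl3 KO libraries 1 to 4, against 5.02, 7.16 and 4.04 in wild-type libraries 1 to 3. The fold ranges of the genotypes overlapped, and each value is its own list's. Ranked by −log10 q within its list, the peak stood at percentile 96.3 in L3mbtl3 KO library 4 and 95.8 in wild-type library 2, but at 22.4 in wild-type library 3.

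Sox21 (chr14:118233233-118237030) had 2, 0, 0 and 1 peaks in L3mbtl3 KO libraries 1 to 4, against 1, 2 and 2 in wild-type libraries 1 to 3. Every wild-type library thus had a peak, as did 2 of 4 L3mbtl3 KO libraries, and the counts of the genotypes overlapped. L3mbtl3 KO libraries averaged 0.75 ± 0.957 peaks and wild-type libraries 1.67 ± 0.577 (SD, n = 4 and 3), a difference of −0.917 that did not pass the exact permutation test (two-sided p = 0.257, adjusted p = 1 over all loci). Both L3mbtl3 KO libraries without a peak have short lists, of 7111 and 3366 peaks, although wild-type library 3, with 6458, called 2. With equal lists, each held to its 3366 best-ranked peaks, the difference was −0.0833 (p = 1), and per 1000 peaks of the list it was −0.141 (p = 0.143, both by the exact permutation test).

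The more frequent Sox21 region, chr14:118230238-118230742, lies 2.49 kb beyond the lower end of the span, past the end of this minus-strand gene. L3mbtl3 KO libraries 1 and 4 and all 3 wild-type libraries called it, with a core of 210 bp common to their peaks and folds of 4.75 and 5.06 in the L3mbtl3 KO libraries, against 4.38, 4.03 and 4.30 in wild-type libraries 1 to 3. The other, chr14:118212492-118212699, lies 20.5 kb beyond the same end, inside the lncRNA gene 4933431J24Rik. L3mbtl3 KO library 1 and wild-type libraries 2 and 3 called it.

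Sox1 (chr8:12395519-12399555) and Sox2 (chr3:34649995-34652461) had 2 peaks each in L3mbtl3 KO library 4 and none in the other 6 libraries. The Sox1 peaks lay 30.7 and 39.6 kb beyond the upper end of the gene, the nearer one inside the lncRNA gene Sox1ot. One Sox2 peak, chr3:34650614-34650795, lay in the gene span 0.619 kb from its start, and the other 15.5 kb beyond it, each inside the lncRNA gene Sox2ot. No library had a peak in the 250 bases before the start of either gene. L3mbtl3 KO library 4 has the longest list, and with every list held to its 3366 best-ranked peaks these loci had no peak in any library.

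**Figure D2:**
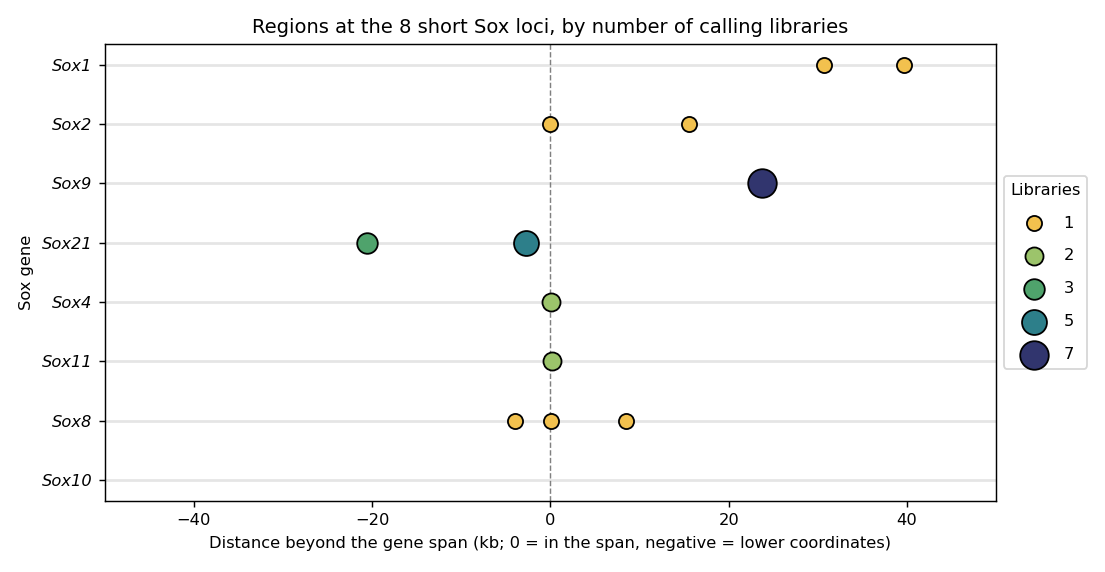
Regions at the 8 short Sox loci (rows), placed by their distance beyond the gene span in kb, with size and colour giving the number of libraries that called them. The Sox9 region called in 7 libraries and the Sox21 region called in 5 lie outside the spans, whereas the Sox4 and Sox11 regions, called in 2, sit at the gene.

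The neuronal members divided by gene length. Sox4 (chr13:28948919-28953699) and Sox11 (chr12:27334268-27342718), short genes of the SoxC class, each had 1 peak, in L3mbtl3 KO library 4 and in wild-type library 2, the libraries with the longest list of their genotype. In both genes it lay at the start, and they were, with Sox8, the 3 of 8 members with a RefSeq promoter whose 250 bases before a start touched a peak, where 21.5% of 17491 protein-coding genes did. At Sox4 the peaks had folds of 5.18 in L3mbtl3 KO library 4 and 5.29 in wild-type library 2, shared 199 bp and lay in the upper part of their lists, at percentiles 73.0 and 69.7. At Sox11 the peaks, with folds of 3.71 in L3mbtl3 KO library 4 and 4.52 in wild-type library 2, lay side by side and shared 6 bp. The numbers of peaks in the genotypes overlapped at both genes (exact permutation p = 1, adjusted p = 1).

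The 250 bases before the start of these genes are shown because they are, among the 8 members in the promoter table, the only stretches that touched a peak, and that of Sox2 is set beside them as one that touched none (RefSeq, GRCm38.p6, written 5′ to 3′ on the gene's strand). Capitals mark the bases covered by the peaks of all libraries that called the site.
Sox4, chr13:28953700-28953949, minus strand: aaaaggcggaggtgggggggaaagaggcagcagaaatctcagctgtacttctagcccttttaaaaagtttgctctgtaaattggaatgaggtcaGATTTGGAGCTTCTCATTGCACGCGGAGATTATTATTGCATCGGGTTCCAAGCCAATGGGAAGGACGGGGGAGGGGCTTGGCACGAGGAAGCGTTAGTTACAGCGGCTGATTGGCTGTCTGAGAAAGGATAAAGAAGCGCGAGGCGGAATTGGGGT
Sox11, chr12:27342719-27342968, minus strand: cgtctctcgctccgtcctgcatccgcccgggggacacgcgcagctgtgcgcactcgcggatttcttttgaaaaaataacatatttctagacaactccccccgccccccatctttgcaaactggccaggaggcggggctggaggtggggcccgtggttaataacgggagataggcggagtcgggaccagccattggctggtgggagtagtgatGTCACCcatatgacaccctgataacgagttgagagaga
Sox8, chr17:25570687-25570936, minus strand: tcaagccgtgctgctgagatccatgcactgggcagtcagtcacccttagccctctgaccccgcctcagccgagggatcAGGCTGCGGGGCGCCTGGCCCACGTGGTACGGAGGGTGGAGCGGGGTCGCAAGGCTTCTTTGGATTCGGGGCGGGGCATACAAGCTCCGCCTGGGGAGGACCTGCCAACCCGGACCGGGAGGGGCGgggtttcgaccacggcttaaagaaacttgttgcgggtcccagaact
Sox2, chr3:34649745-34649994, plus strand: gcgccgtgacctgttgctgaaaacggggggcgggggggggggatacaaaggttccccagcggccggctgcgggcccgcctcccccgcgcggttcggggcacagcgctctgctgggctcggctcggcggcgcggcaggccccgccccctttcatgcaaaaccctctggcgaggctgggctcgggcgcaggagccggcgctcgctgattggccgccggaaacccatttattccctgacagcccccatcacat
The Sox4 promoter held the CCAAT box (CCAAT, either strand) 4 times, which 1.02% of 21262 protein-coding promoter stretches of this length do, while 35.4% hold it at least once. It occurs 1 time in Sox11 and in Sox2 and not in these bases of Sox8. The Sox-type sequence ACAAAG, present in 14.9% of promoters, was found in the Sox2 stretch and in none of the other 3 shown, and ACAATG, present in 9.35%, in none of the 4. GGGCGG, present in 42.6%, was found 2 times each in Sox11, Sox8 and Sox2. The E-box CANNTG, present in 62.8%, was found 2 times in Sox11, 1 time each in Sox4 and Sox8 and not in these bases of Sox2. All motifs were searched on both strands; CCAAT and CANNTG can share letters, but no matches overlapped in these 4 stretches, and a match describes the letters only. The ratio of observed to expected CpG was 0.801 at Sox4, 0.810 at Sox11, 0.676 at Sox8 and 0.833 at Sox2, higher than in 75.0%, 76.0%, 62.1% and 78.1% of promoters.

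Sox5 (chr6:143828425-144782287) held the most peaks of the family, all inside the gene and none at an end. It had 6, 5, 3 and 11 peaks in L3mbtl3 KO libraries 1 to 4, against 6, 7 and 5 in wild-type libraries 1 to 3, so that the wild-type values fell within the L3mbtl3 KO range. L3mbtl3 KO libraries averaged 6.25 ± 3.40 and wild-type libraries 6 ± 1 (SD, n = 4 and 3), a difference of 0.25 (exact permutation p = 1, adjusted p = 1). The count followed list length: per 1000 peaks of the list, Sox5 had 0.611, 0.703, 0.891 and 0.634 in L3mbtl3 KO libraries 1 to 4, against 0.806, 0.614 and 0.774 in wild-type libraries 1 to 3, and on this scale the difference was −0.0218.

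The Sox5 peaks merged into 14 regions, 7 of them called in at least 3 libraries. These 7 were strung along the 954 kb span with 7.45 to 229 kb between neighbours, the first 105 kb from the lower end. L3mbtl3 KO libraries 1 to 4 called 6, 5, 3 and 6 of them, and wild-type libraries 1 to 3 called 5, 6 and 5. The gene lies on the minus strand in the promoter table, whose 1 Sox5 start, at 143947106, lies inside the span and nearer its lower end.

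All 7 libraries called chr6:143995031-143995464, which is 47.9 kb from that start and has a common core of 148 bp, and chr6:144251554-144252081, with a core of 37 bp. The first had folds of 4.41, 5.15, 3.77 and 4.52 in L3mbtl3 KO libraries 1 to 4, against 5.59, 4.02 and 4.68 in wild-type libraries 1 to 3. The second had 4.25, 4.49, 4.45 and 5.92 in L3mbtl3 KO libraries 1 to 4, against 4.27, 4.74 and 4.11 in wild-type libraries 1 to 3. In each the genotypes overlapped. All 3 wild-type libraries and 3 of 4 L3mbtl3 KO libraries, all but library 3, called chr6:144056753-144057374.

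**Figure D3:**
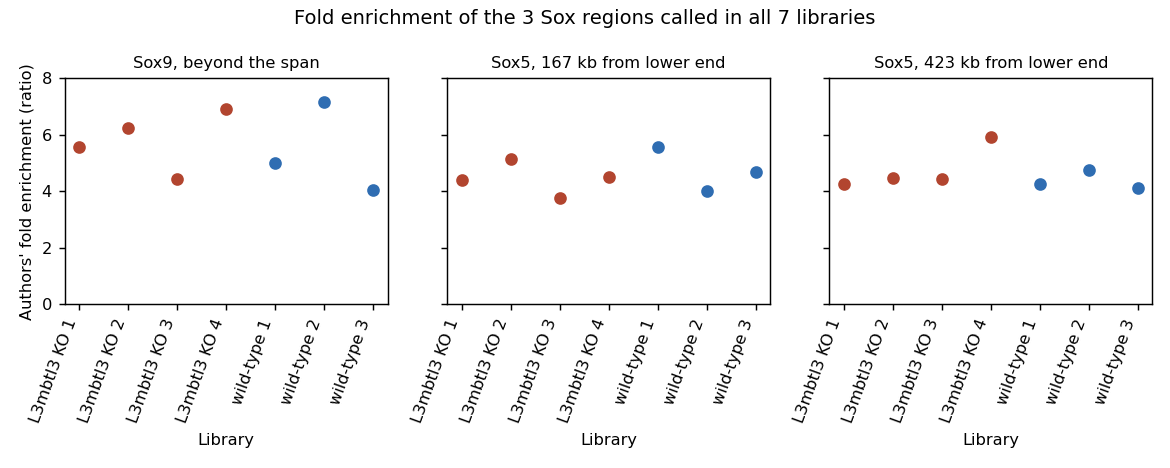
The authors' fold enrichment (ratio, y axis from 0) of the peak in each library at the 3 Sox regions called in all 7 libraries, L3mbtl3 KO left of wild-type. Values run from 4.04 to 7.16 at Sox9 and from 3.77 to 5.92 at Sox5, and the genotypes overlap in each panel.

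The remaining recurrent Sox5 regions were called in 3 to 5 libraries. Those called in 2 of 4 L3mbtl3 KO and 3 of 3 wild-type libraries (chr6:144481175-144481486, fold up to 6.22) and in 3 of 4 and 1 of 3 (chr6:143941260-143941625, fold up to 5.94) were the most uneven between genotypes, at Fisher exact p = 0.429 and 0.486. The region of these that 3 L3mbtl3 KO libraries called lies 5.48 kb past the internal Sox5 start of the promoter table. That start lies nearer the lower end of the span, not at its upper end. A region in 2 of 4 L3mbtl3 KO and 2 of 3 wild-type libraries, chr6:144681139-144681490, lies inside the antisense lncRNA gene Sox5os3 as well, and peaks carry no strand. The last, chr6:143933536-143933811, was called in 2 of 4 L3mbtl3 KO and 1 of 3 wild-type libraries.

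Sox6 (chr7:115470872-116040776), the other long SoxD gene, showed the same arrangement inside its span of 570 kb. It had 1, 3, 2 and 6 peaks in L3mbtl3 KO libraries 1 to 4, against 3, 3 and 4 in wild-type libraries 1 to 3. The means were 3 ± 2.16 in L3mbtl3 KO and 3.33 ± 0.577 in wild-type libraries (SD, n = 4 and 3), a difference of −0.333 within the spread (exact permutation p = 0.857, adjusted p = 1). Of its 8 regions 4 were called in at least 3 libraries. The most frequent, chr7:115866041-115866443, was called in all libraries but L3mbtl3 KO library 1, with folds of 4.56, 4.99 and 4.21 in L3mbtl3 KO libraries 2 to 4, against 4.41, 4.07 and 4.89 in wild-type libraries 1 to 3. It lies 19.9 kb from the nearest of the 6 Sox6 starts in the promoter table, none of which had a peak in the 250 bases before it.

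The other recurrent Sox6 regions were chr7:115615744-115616032, in 3 of 4 L3mbtl3 KO and 2 of 3 wild-type libraries, chr7:115645674-115645920, in 2 of 4 and 2 of 3, and chr7:115722105-115722306, in 2 of 4 and 1 of 3. Their peaks shared cores of 60, 25 and 87 bp. Without transcript models, exons and introns of Sox5 and Sox6 were not told apart.

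**Figure D4:**
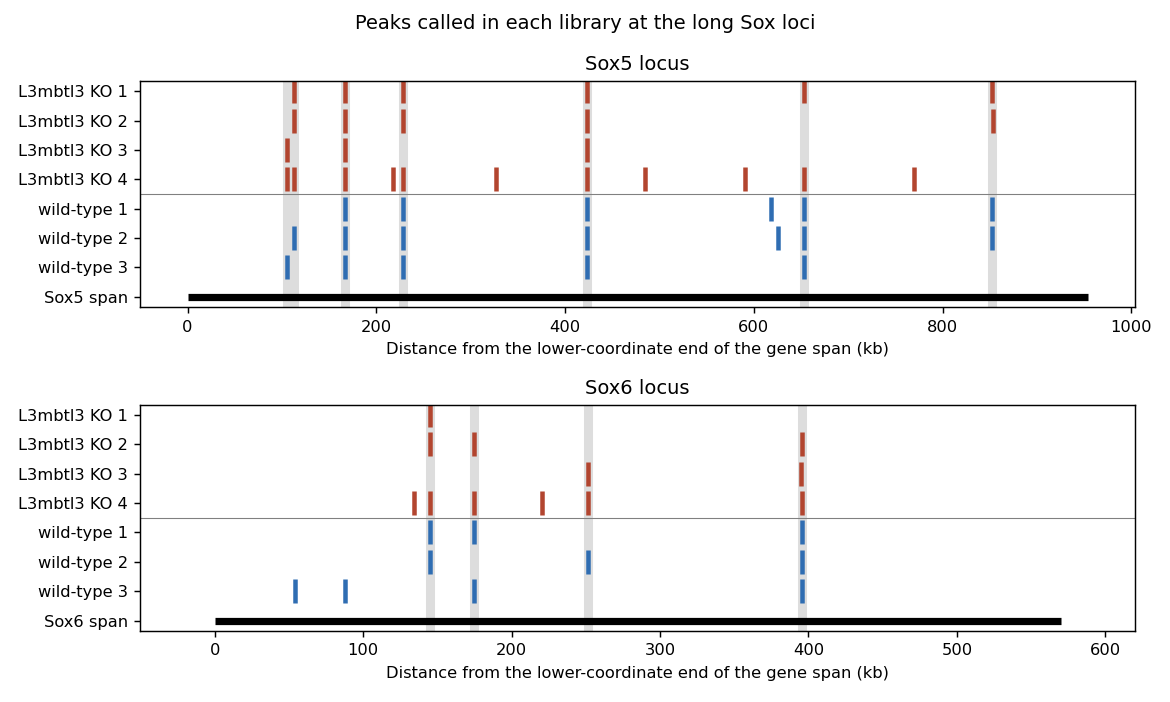
Peaks (ticks) of each library along the Sox5 and Sox6 loci, in kb from the lower-coordinate end of the gene span (black bar); grey bands mark regions called in at least 3 libraries, red ticks L3mbtl3 KO and blue ticks wild-type. The 7 banded regions of Sox5 and the 4 of Sox6 hold most ticks of both genotypes, and L3mbtl3 KO library 4 has the most ticks outside them.

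The glial members had peaks in 1 library alone. Sox10 (chr15:79154913-79164490) had no peak in any library within 50 kb of its span, as 30.8% of protein-coding loci did. Sox8 (chr17:25565893-25570686) had 3 peaks in L3mbtl3 KO library 4 and 0 in the other 6 libraries. One covered bases before its start, chr17:25570733-25570858, which are also part of the lncRNA gene Cerox1, with a fold of 3.46 and a rank at percentile 11.7 of its list. Another, with a fold of 3.35, lay 8.37 kb beyond the upper end at the neighbouring gene Lmf1, and the last 3.95 kb beyond the lower end. With lists of equal length Sox8 had no peak. Marker genes of oligodendrocyte precursors, the glial lineage in which these genes act, summed to 0 to 1 peaks in each genotype, and 3 of the 4 (Olig1, Pdgfra and Cspg4) had none in any library. L3mbtl3 KO library 4 also had 5 peaks at the 4 endothelial marker loci, against 0 in the other L3mbtl3 KO libraries and 0 to 1 in wild-type libraries. This library has the longest list, and its sum was the highest or tied for it in every other marker list too. It had 24 peaks at radial glia markers, against 8 to 14 in wild-type libraries, and 4 at microglia markers, against 2 in each wild-type library. The part of endothelial cells in the Sox8 result was not tested.

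Set side by side by their medians, neural stem loci carried the densest peaks and glial loci the sparsest, but the members of a group differed widely. The median member had 0.643 peaks per library among neural stem, 0.286 among neuronal and 0.214 among glial loci, against 0.286 over all protein-coding loci. Per 100 kb of locus, which takes out the length of Sox5, the medians were 0.613, 0.273 and 0.204, against 0.209 over all protein-coding loci. By locus, Sox21 at 1.1 and Sox9 at 0.947 peaks per 100 kb and library were denser than 94.2% and 91.2% of protein-coding loci, Sox5 at 0.583 than 78.9%, and Sox6 at 0.469 than 72.5%. Sox8 at 0.409, all from L3mbtl3 KO library 4, was denser than 68.8% of loci and stood above Sox1, Sox2, Sox4 and Sox11, which lay between 0.263 and 0.279. Sox10 was at 0, and so was Sox8 in every library but L3mbtl3 KO library 4. Without that library both glial loci were at 0.

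Summed by group, neural stem loci had 0.721, 0.240, 0.240 and 1.44 peaks per 100 kb in L3mbtl3 KO libraries 1 to 4, against 0.481, 0.721 and 0.721 in wild-type libraries 1 to 3. Neuronal loci had 0.474, 0.395, 0.237 and 1.03 in the L3mbtl3 KO and 0.474, 0.710 and 0.395 in the wild-type libraries. Neural stem loci were denser than neuronal loci in 6 of 7 libraries and than glial loci in 7 of 7. Glial loci stood at 1.40 in L3mbtl3 KO library 4 and at 0 in the other 6 libraries. The distance between neural stem and neuronal loci was close to 0 in L3mbtl3 KO library 3 and wild-type libraries 1 and 2, and its mean was smaller than the spread between libraries, at 0.653 ± 0.410 against 0.530 ± 0.261 (SD, n = 7). With 10 kb on either side, the glial loci (0.788, all of it from L3mbtl3 KO library 4) stood above the neuronal loci (0.654). No test was made of these groups, since their members were chosen with results known.

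**Figure D5:**
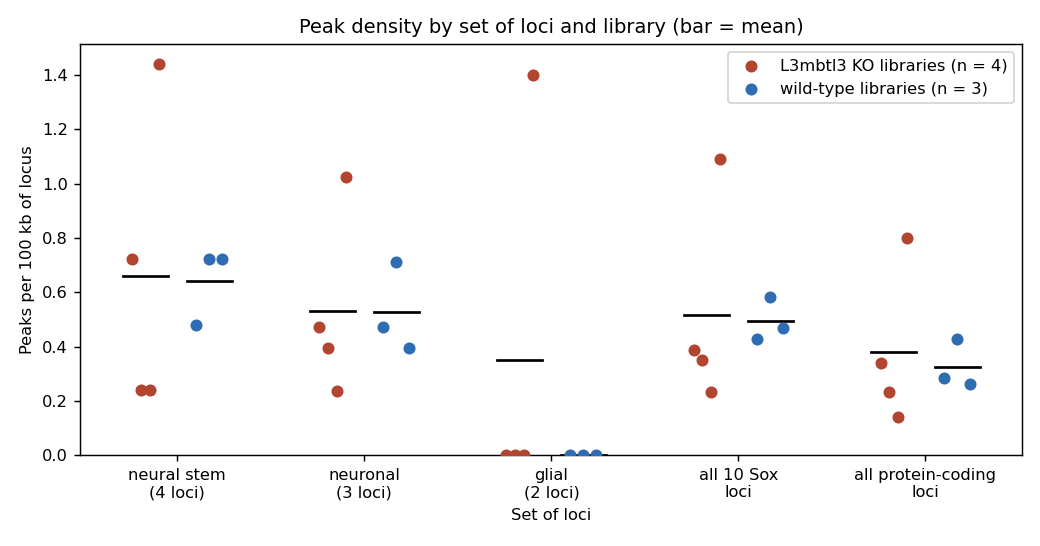
Peaks per 100 kb of locus for the neural stem, neuronal and glial Sox loci, all 10 Sox loci and all protein-coding loci, 1 point per library, L3mbtl3 KO (red) left of wild-type (blue), with a bar at the mean. The highest point of each set is L3mbtl3 KO library 4, at 1.09 for the 10 Sox loci, and the genotypes overlap in every set.

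By genotype, no Sox locus passed the test. The 10 loci together had 10, 9, 6 and 28 peaks in L3mbtl3 KO libraries 1 to 4, against 11, 15 and 12 in wild-type libraries 1 to 3. Of the members, 4 had a higher mean in L3mbtl3 KO libraries (Sox1, Sox2, Sox5 and Sox8), 4 a lower one (Sox4, Sox6, Sox11 and Sox21) and 2 equal means (Sox9 and Sox10), where 40.6% of protein-coding loci were higher and 26.2% lower. The median difference was 0 for the members and 0 over all loci. In the exact permutation test over all 21883 loci, 0 members had an unadjusted p under 0.05, as had 0.228% of loci, and 0 loci passed the Benjamini-Hochberg adjustment. Fisher's exact test on libraries with a peak gave 0 members an unadjusted p under 0.05, as it gave 0.206% of loci, and 0 loci passed the adjustment. For the members that outcome was fixed in advance by the number of libraries with a peak, as set out below. In no member did the counts of the genotypes stand apart, which they did in 0.0914% of loci with L3mbtl3 KO higher and 0.146% with it lower.

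All 4 members with a higher mean in L3mbtl3 KO libraries lost that direction without library 4 of that genotype. Sox1, Sox2 and Sox8 were called there and nowhere else, as were 12.7% of all loci, and without it their differences were 0 and that of Sox5 was −1.33. The summed difference of the 10 loci was 0.583 peaks per library with it and −4.33 without it. The smallest p this design allows is 0.0286, so that a p above the threshold does not show that the genotypes are alike. Ties between libraries raise it. Sox9, with 1 peak in every library, and Sox10, with none, could not pass the permutation test or Fisher's test. Nor could Sox1, Sox2, Sox4, Sox8 and Sox11, with peaks in 1 or 2 libraries. Sox5 and Sox6, with a peak in every library, and Sox21, with one in 5, could not pass Fisher's test either. That test could therefore call no member. The adjustment over all loci passes a locus only if most loci have a p under the threshold, so its result decides nothing here.

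Taken as regions, the Sox loci held 34, of which 18 were called in 1 library, 14 in at least 3 and 3 in all 7. Over all 25623 regions, 48.4% were called in 1 library, 35.1% in at least 3 and 5.06% in all 7, so that the Sox regions recurred at a rate near that of all regions. L3mbtl3 KO library 4 alone called 14 of the 34, where it alone called 25.3% of all regions. Of the 14 recurrent Sox regions 11 lay inside a span and 3 outside it, and 0 lay within 1 kb of an end of their gene. Within 1 kb of an end of their own gene lay 4 of the 34 Sox regions, at Sox2, Sox4, Sox8 and Sox11, and with the end of Lmf1 near Sox8 5 (14.7%) lay at an end of any protein-coding gene, where 26.1% of the regions in protein-coding loci did. Inside a span and away from its ends lay 22 (64.7%), where 50.5% of the regions in protein-coding loci did; 14 of those at Sox loci belong to Sox5 and 8 to Sox6.

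Each of the 14 recurrent regions was called in libraries of both genotypes. The share of calling libraries was larger in L3mbtl3 KO for 4, larger in wild-type for 7 and equal for 3. Fisher's exact test gave no p below 0.429 for them, with an adjusted p of 1 for each, and of all regions 0.242% had an unadjusted p under 0.05 and 0 passed the adjustment. Regions called in 5 or more libraries could not have passed this test, so for them it decides nothing. Peaks in these regions had folds of 3.47 to 7.16, and peaks of regions called in 1 library 3.35 to 5.73. All 14 had a stretch that the peaks of every calling library covered, from 25 bp at Sox6 to 210 bp at Sox21.

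The other 10 mouse Sox genes served as a comparison within the family. None had a peak in all 7 libraries, where 6.9% of protein-coding loci did. In at least 1 library 7 of the 10 had one, near the 69.2% of protein-coding loci. Their loci had 2, 0, 0 and 9 peaks in L3mbtl3 KO libraries 1 to 4, against 3, 4 and 1 in wild-type libraries 1 to 3, a density below that of all protein-coding loci in 6 of 7 libraries, whereas the 10 Sox loci described above exceeded it in 7 of 7. That density is pooled by length, and Sox5 and Sox6 held 43 and 22 of the 91 peaks of the 10 loci. In L3mbtl3 KO libraries 2 and 3, Sox9 was the only other member with a peak. The 10 were also chosen with results known, so the contrast does not show that each is denser. Sox30, known from the male germ line, had 1, 0, 0 and 2 peaks in L3mbtl3 KO libraries 1 to 4, against 2, 1 and 0 in wild-type libraries 1 to 3. Sox15 had 1, 0, 0 and 2 in the L3mbtl3 KO and 0, 1 and 1 in the wild-type libraries, in a window shared with many genes. Sox3, the X-linked relative of Sox1 and Sox2, had 2 peaks and Sox13 had 1, in L3mbtl3 KO library 4 alone. Sox12, the third SoxC gene, had 1 peak in L3mbtl3 KO library 4 and 1 in wild-type library 2, the same libraries as at Sox4 and Sox11. The endothelial genes Sox17 and Sox18 had 1 peak in wild-type library 2, and 1 each in L3mbtl3 KO library 4 and wild-type library 1. Sry, Sox7 and Sox14 had none. In the exact permutation test the p of these loci was at least 0.429, with an adjusted p of 1.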

How the data were processed

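Each of the 7 libraries (4 L3mbtl3 KO, 3 wild-type, grouped by the titles in the labels) has 1 deposited list of broad peaks. The submitters' processing notes name GRCm38, CASAVA 1.9, MACS2, SAMtools 1.9, Bowtie2 2.3.5.1, deepTools 3.3.0 and FastQC 0.11.8, with no settings; whether cut sites were corrected for the transposase's offset is not stated there. The deposited lists hold, per peak, a fold enrichment (a ratio), a −log10 p, a −log10 q and a whole-number score, which was not used; the smallest −log10 q was 1.30 to 1.32. Without read counts, depth and counting intervals are unknown.

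Peaks touching a gene or the 50 kb flanks were counted for all 21883 protein-coding genes of a RefSeq table (GRCm38.p6), in Python 3.11.15 with SciPy 1.17.1. Peaks overlapping by at least 1 bp across libraries were merged into regions. Genotypes were compared by a two-sided exact permutation test of means over 35 splits (loci) and Fisher's exact test (loci and regions), with Benjamini-Hochberg adjustment over all of them. The permutation code was tested on simulated data, which does not make the test sensitive here. With lists of such unequal length (3366 to 17362 peaks) it can miss even a large change. Among the 52 loci whose counts stood apart between genotypes, the permutation p ran from 0.0286 to 0.0857. A locus that did not pass is therefore not shown to be unchanged. Neighbouring loci can share peaks. Coordinates count from 1. RefSeq promoters were matched for 8 members (all but Sox9 and Sox10). The members, groups and motifs were chosen with earlier results of these data known. Named genes were the 10 members, other Sox genes with a peak, genes at a member's region and cell type markers; regions called in at least 3 libraries were described. Markers of neurons, intermediate progenitors, interneurons, microglia and meninges had peaks at 5 of 5, 3 of 4, 4 of 5, 3 of 4 and 2 of 4 loci. These are loci with a peak in at least 1 library, as 69.2% of all protein-coding loci had, and do not show which cells were present. Replicate numbers shared by the genotypes in the labels are not stated to pair libraries.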

Additional observations from a re-analysis of the deposited data

Results flagged for a closer look

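In the 4 L3mbtl3 KO libraries, library 4 stood apart from the other 3, which were at 0, with 2 peaks at Sox1, 2 at Sox2, 1 at Sox4, 3 at Sox8, 1 at Sox11 and 3 at the glial loci together (Sox8 and Sox10), each past Dixon's 95% critical value for 4 samples. Counts this low flag a group whenever a single library has a peak, and the rate of about 1 in 20 that chance gives does not hold for them: 12.7% of all protein-coding loci had peaks in L3mbtl3 KO library 4 alone, and each of those would pass the same criterion. With lists of equal length all 5 loci had no peak in any library.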

How the results depend on the processing

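Of 254 values recomputed under an alternative, 227 counted as unchanged, by a lenient criterion. Tested differences had to keep their side of the threshold and not turn sign, and a fall to 0 passed. Sox1, Sox2 and Sox8, at 0 without L3mbtl3 KO library 4, thus counted as unchanged. Untested values had to move by less than the spread. Counts could move within a set ratio, so members with a peak passed at 9 and, without that library, at 6. The 5 alternatives that kept all libraries gave no member locus an exact permutation p under 0.05 (lowest 0.143, Sox21 per 1000 peaks). The others could not: the smallest p is 0.1 without 1 L3mbtl3 KO library, 0.0667 without 1 wild-type library and 0.25 for 3 pairs, so they say nothing of stability. Small differences turned direction: Sox4 to 0.0833 with 100 kb on either side, Sox6 to 0.333 with equal lists, and Sox5 to −0.0218 per 1000 peaks. With the replicate block (numbers 1 to 3 paired, L3mbtl3 KO library 4 left out) Sox5 was at −1.33, by construction its value without that library (exact sign-flip p = 0.5). Same-numbered libraries did not all deviate together (r = −0.0249, 0.0635 and 0.0613 over loci for numbers 1 to 3). Libraries of unlike number ran from −0.125 to 0.0966, so these values show no sign of pairing. With so few libraries per genotype they cannot exclude it. Leaving out 1 library gave −1.33 to 1.33 at Sox5, −1.33 to 0.333 at Sox6, and −0.333 to 0.25 at Sox4 and at Sox11. The reversals came without L3mbtl3 KO library 4 or wild-type library 3 (Sox5, −1.33 and −0.25), L3mbtl3 KO library 1 (Sox6) and wild-type library 2 (Sox4 and Sox11); the cause was not tested.

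Held to equal lists, members with a peak numbered 4 (Sox5, Sox6, Sox9 and Sox21), members with one in every library 0, regions 14, regions in at least 3 libraries 2 (Sox9 in 6 libraries, Sox5 in 4) and regions in every library 0, with neuronal loci at 0.147 peaks per 100 kb; this setting drops lower-ranked peaks by construction. At −log10 q of at least 5 these values were 2 members (Sox5 and Sox9), 0 in every library, 2 regions, 1 in at least 3 libraries (Sox9) and 0 in every library, with neural stem loci at 0.103 and neuronal loci at 0.0113 peaks per 100 kb. Requiring each peak to span 50% of its region or more, 6 were called in at least 3 libraries and 0 in every library, also by construction. With 10 kb on either side glial loci stood at 0.788, and without Sox5, an alternative chosen after seeing the data, neuronal loci stood at 0.268. Without single libraries the regions numbered 20 to 34, the lowest without L3mbtl3 KO library 4. Depth limits all of these counts and cannot be set from the lists.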
